A study of Mus musculus with 5 samples.

Results

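Plagl1, Peg3, H19, Igf2, Meg3, Dlk1, Cdkn1c, Grb10, Ndn and Sgce are imprinted genes, most of them with known roles in growth. Of these 10 symbols, 9 were rows of the deposited table of 19198 genes (Dlk1 was not a row of the table used). The set was chosen by symbol around Plagl1, which was selected on its low unadjusted p in the comparison described here, with results of these libraries known. The fold changes between the groups below are therefore a description of these mice, and no test of the members supports them. Myh11, the smooth muscle myosin heavy chain gene, served as the reference for muscle content. The data were RNA-seq libraries of whole small intestine, each titled with its own number and taken as 1 mouse, from 3 Cre-negative and 2 Cre-positive mice. Cre-negative mice, the controls, were mAchR4 fl/fl and carried no Cre. Cre-positive mice were Math1Cre*PR mAchR4 fl/fl: their inducible Cre, joined to a ligand-binding part of the progesterone receptor, is driven from Math1 (Atoh1), the regulator of the secretory epithelial lineage. RU486, the ligand that activates this Cre, was given to both groups by daily gavage (10 mg/kg, for 4 days in all). No Cre-positive group with unfloxed mAchR4 is in the series, so effects of Cre and of losing the M4 receptor cannot be told apart. Libraries held 4681119 to 6618204 counts. The stretch of intestine, the sex and the age are not stated in the labels.

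Imprinted genes are transcribed mainly from a single parental copy, chosen by DNA methylation laid down in the egg or sperm. Many act on fetal and placental growth and are turned down in most tissues after birth. Plagl1 (also Zac1) encodes a zinc finger transcription factor known to bind and regulate other imprinted genes, among them Igf2, H19, Cdkn1c and Dlk1, which is why these genes are often treated as a network. Igf2 is a secreted growth factor, H19 and Meg3 are long non-coding RNAs, and Cdkn1c and Grb10 restrain the cell cycle and insulin-type signalling.

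The stretches upstream of the Plagl1 and Peg3 starts are shown because Plagl1 is the gene around which the set was chosen and because Peg3 was the member in whose promoter window the searched Plagl1-type motif occurred. Sequences are from RefSeq on GRCm38.p6, the assembly that mm10 denotes, and cover 250 bases before the RefSeq start, which for Plagl1 lies inside the wider span that GENCODE annotates. In the Plagl1 sequence (chr10:13090582-13090831, plus strand) capitals mark the 19 CG dinucleotides, the bases at which DNA methylation occurs. In the Peg3 sequence (chr7:6730420-6730669, minus strand) capitals mark GGGGCCCC, a run of the kind that the Plagl1 protein binds, which begins 201 bases before the start.
Plagl1: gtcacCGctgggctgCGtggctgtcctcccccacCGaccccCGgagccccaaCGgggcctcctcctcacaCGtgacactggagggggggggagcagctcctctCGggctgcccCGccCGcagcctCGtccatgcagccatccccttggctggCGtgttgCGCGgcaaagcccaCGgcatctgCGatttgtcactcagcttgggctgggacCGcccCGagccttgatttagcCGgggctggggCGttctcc
Peg3: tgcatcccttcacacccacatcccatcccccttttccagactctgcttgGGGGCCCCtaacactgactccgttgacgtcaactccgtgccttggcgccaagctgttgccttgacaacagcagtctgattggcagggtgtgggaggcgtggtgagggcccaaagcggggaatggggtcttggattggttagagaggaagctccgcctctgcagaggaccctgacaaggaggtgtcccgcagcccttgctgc
The motif GGGGCCCC reads the same on both strands, and it was searched in windows of 300 bases (250 before and 50 after each start). It was present in 1.08% of 32851 promoter windows. Of the 10 members, 7 matched this promoter table, and Peg3 alone of these held the motif. The Plagl1 window held 26 CG dinucleotides, more than 83.1% of all windows, against a median of 7. These matches describe letters in a window, and neither methylation nor binding was measured.

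Plagl1 had the most counts of the members in all mice together and was lower in both Cre-positive mice than in every Cre-negative mouse. Plagl1 (chromosome 10, 13060504 to 13131694, plus strand, GRCm38, 13 exon blocks) had 493, 465 and 346 counts for Cre-negative 1, 2 and 3, then 122 and 257 counts for Cre-positive 1 and 2. Scaled to library size as CPM (a gene's share of its library's scaled total), these were 118, 86.2 and 56.4 CPM in the Cre-negative group and 23.6 and 39.9 CPM in the Cre-positive group. The groups did not overlap, although the mice within each group spread widely, and the highest library was 5.0 times the lowest. Group means were 86.9 ± 30.9 CPM (SD, n = 3) and 31.8 ± 11.5 CPM (SD, n = 2), and the log2 fold change (Cre-positive over Cre-negative) came to -1.45 ± 0.39 (SE). Every Plagl1 value in the deposited table was a whole number, so no sharing of its reads with another gene was visible. Of its family, Plag1, an oncogenic relative, lay higher in both Cre-positive mice than in every Cre-negative mouse, as did 7.89% of all genes tested. Its log2 fold change was 0.35 ± 0.26 (SE), it was not called, and nothing is read from it. Plag1 averaged 13.4 ± 1.55 and 17.1 ± 0.444 CPM (SD, n = 3 and 2), and Plagl2 averaged 46.4 ± 16.4 and 46.8 ± 0.276 CPM.

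**Figure D1:**
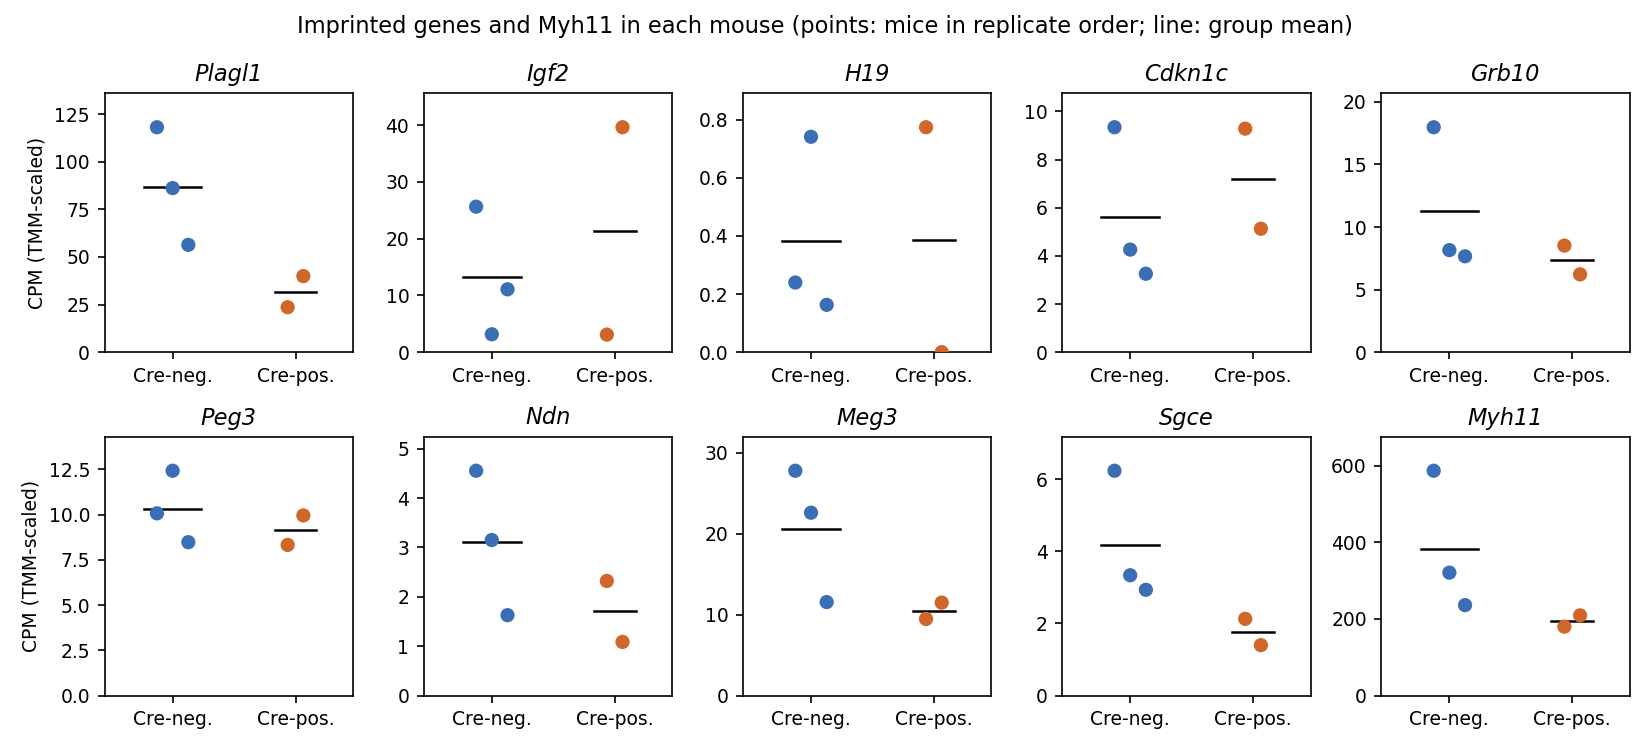
Each panel plots CPM in the 5 mice for a member or Myh11, with Cre-negative mice in blue, Cre-positive mice in orange and a line at each group mean; the vertical axes start at 0 and differ between panels. Plagl1 lies at 56.4 CPM or higher in the controls without Cre and at 39.9 CPM or lower in the Cre-positive group, while Igf2 spans 3.10 to 39.6 CPM without following the groups.

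Peg3, a second imprinted zinc finger gene (chromosome 7, 6703892 to 6730431, minus strand, 10 exon blocks, 42 to 67 counts), varied least among the mice. It stood at 10.1, 12.4 and 8.47 CPM in the controls without Cre and at 8.32 and 9.95 CPM in the Cre-positive group, so the groups overlapped. The highest library was 1.49 times the lowest, the narrowest range among the members tested. The log2 fold change was -0.17 ± 0.31 (SE).

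Igf2 and H19 are neighbours that share enhancers and are known to be expressed from opposite parental copies. H19 was low in every mouse, with at most 4 counts, while Igf2 was low only in some. Per kb of exon, Igf2 and H19 stood at 0.550 and 0.301 CPM in Cre-negative 2 and at 0.541 and 0.315 CPM in Cre-positive 1, while Igf2 reached 6.93 against 0 for H19 in Cre-positive 2. H19 (chromosome 7, 142575529 to 142578143, minus strand) had 1, 4 and 1 counts in the Cre-negative group and 4 and 0 counts in the Cre-positive group, 10 counts in all. The exact Poisson 95% interval reached up to 1.90 CPM for Cre-negative 2 and 1.98 CPM for Cre-positive 1, and up to 0.573 CPM for the count of 0 in Cre-positive 2. The limit of 3 counts that is used for a count of 0 corresponds to 0.466 CPM in that library. These limits cover counting error only, and at this depth no difference in H19 between the groups was detectable. Igf2 (chromosome 7, 142650766 to 142666816, minus strand, 8 exon blocks, 72622 bases beyond H19) had 107, 17 and 68 counts in the Cre-negative group and 16 and 255 counts in the Cre-positive group. Its CPM values were 25.6, 3.15 and 11.1 for Cre-negative 1, 2 and 3, then 3.10 and 39.6 for Cre-positive 1 and 2. The lowest and the highest libraries were the pair of Cre-positive mice, 12.8-fold apart, which was the widest range among the members tested. The log2 fold change was 0.71 ± 1.11 (SE) and turned to -2.02 without Cre-positive 2. Igf2 shares 3596 exon bases with the gene model Gm49394 on the same strand, and its values were not whole in 2 libraries. The antisense gene Igf2os had 11, 0 and 1 counts against 0 and 7. It shares 98 exon bases with Igf2, and only reads in those bases cannot be told apart without strand. The sum of Igf2 and Gm49394 was 25.6, 3.15 and 13.97 CPM in the Cre-negative group and 3.10 and 40.5 CPM in the Cre-positive group, so the order of the libraries stayed as it was.

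Cdkn1c and Grb10, which restrain growth, overlapped between the groups. Cdkn1c (chromosome 7, 143458339 to 143461050, minus strand, 20 to 48 counts), a cyclin-dependent kinase inhibitor, stood at 9.35, 4.26 and 3.26 CPM in the controls without Cre and at 9.29 and 5.13 CPM in the Cre-positive group. Cre-negative 1 and Cre-positive 1 were both high, and the log2 fold change of 0.37 ± 0.53 (SE) became -0.07 without Cre-positive 1 and 0.96 without Cre-negative 1. An antisense gene model, Gm44732, overlaps 625 of its exon bases. Grb10 (chromosome 11, 11930508 to 12038683, minus strand, 40 to 75 counts), an adaptor that binds the insulin and IGF1 receptors and dampens them, stood at 17.97, 8.15 and 7.66 CPM in the controls without Cre and at 8.51 and 6.22 CPM in the Cre-positive group. Cre-negative 1 alone lay apart from the other mice. The log2 fold change of Grb10 was -0.60 ± 0.46 (SE) with all mice and -0.08 without Cre-negative 1.

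Meg3, a long non-coding RNA, and Sgce were lower in both Cre-positive mice than in every control, Meg3 by a narrow margin. Meg3 (chromosome 12, 109541001 to 109571726, plus strand, 49 to 122 counts) stood at 27.8, 22.6 and 11.6 CPM in the controls without Cre and at 9.48 and 11.5 CPM in the Cre-positive group. Cre-negative 3 and Cre-positive 2 were almost level. The deposited values of Meg3 were not whole in 5 of 5 libraries, as values are when reads are shared out between genes, and an antisense gene model, Gm26906, overlaps 1228 of its exon bases, so its level is uncertain. Rian, the next non-coding gene of the same imprinted domain (32213 bases beyond Meg3), was whole in all libraries and ran in parallel. Its values were 30.2, 23.2 and 13.4 CPM in the Cre-negative group and 11.4 and 9.95 CPM in the Cre-positive group. The log2 fold changes were -0.97 ± 0.41 (SE) for Meg3 and -1.05 ± 0.38 for Rian.

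Sgce, the epsilon-sarcoglycan gene of the membrane complex that links the cytoskeleton of muscle and other cells to the matrix, and Peg10, a retrotransposon-derived gene, lie head to head with 98 bases between them on chromosome 6. Sgce (4674350 to 4747207, minus strand, 14 exon blocks) had 26, 18 and 18 counts in the Cre-negative group and 11 and 9 counts in the Cre-positive group. These were 6.23, 3.34 and 2.93 CPM against 2.13 and 1.40 CPM, with a log2 fold change of -1.22 ± 0.54 (SE). Peg10 stood at 9.58, 4.45 and 2.77 CPM in the controls without Cre and at 1.35 and 0.933 CPM in the Cre-positive group. Both genes had the same order of libraries, from Cre-negative 1 down to Cre-positive 2. Ndn (chromosome 7, 62346569 to 62350262, plus strand, 1 exon block), which encodes the growth suppressor necdin, had 19, 17 and 10 counts in the Cre-negative group and 12 and 7 counts in the Cre-positive group. Its CPM values of 4.55, 3.15 and 1.63 against 2.32 and 1.09 overlapped, and the log2 fold change was -0.86 ± 0.63 (SE). It was -0.35 without Cre-positive 2, -0.47 without Cre-negative 1 and -1.43 without Cre-positive 1.

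Compared per length of exon, Plagl1 had the highest mean of the members over the 5 mice, 8.29 CPM per kb (3.02 to 15.1). Cdkn1c followed at 3.07 CPM per kb (1.60 to 4.58) and Igf2 at 2.89 (0.541 to 6.93). Plagl1 was the highest of these 3 genes in each Cre-negative mouse. In Cre-positive 1 Cdkn1c was higher (4.56 against 3.02 CPM per kb), and in Cre-positive 2 Igf2 was higher (6.93 against 5.11 CPM per kb). Grb10 at 1.07, Meg3 at 0.917, Peg3 at 0.739 and Ndn at 0.690 CPM per kb could not be ordered beyond the spread between mice. Sgce at 0.302 and H19 at 0.156 CPM per kb were lowest, with ranges of 0.132 to 0.587 and 0 to 0.315. Myh11 averaged 40.3 CPM per kb (23.7 to 77.2). The lengths are of all annotated exons joined, so a gene with long rarely used exons appears lower.

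No gene passed the test between the groups, members included. The quasi-likelihood test of edgeR, run on 14352 genes, called 0 of them (0%; Benjamini-Hochberg adjusted p threshold 0.05, lowest adjusted p 0.977), and 485 had an unadjusted p under 0.05. DESeq2 called 19 genes and limma-voom 0, and no member was among them. H19 did not pass the filter on low counts, which leaves 8 members tested. Of these 8, 6 had a negative log2 fold change, with a median of -0.73 against -0.04 over all genes tested. CPM of both Cre-positive mice lay below all Cre-negative mice for 3 of the 8 (Plagl1, Meg3 and Sgce), and this was so for 10.2% of all genes tested. With RLE in place of TMM scaling 2 members had such separate groups, and the share over all genes was not taken with RLE. Since the set was chosen with this contrast known, nothing is read from these counts. CPM lay above them for 0 of the 8, against 7.89% of all genes.

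Smooth muscle transcripts also differed among the mice, and Myh11 ranked the 5 libraries in the same order as Plagl1 and Meg3. Myh11 stood at 586, 321 and 236 CPM for Cre-negative 1, 2 and 3, then at 180 and 209 CPM for Cre-positive 1 and 2. The log2 fold change of Myh11 was -0.97 ± 0.40 (SE) with all mice and -0.49 without Cre-negative 1. Summed over the 20 smooth muscle markers, all of them in the table and none at 0 in any library, the level was 5828, 3003 and 2247 CPM in the Cre-negative group and 1880 and 2194 CPM in the Cre-positive group. Of these 20 markers, 20 had a negative log2 fold change (median -0.91 against -0.04 over all genes tested) and 0 were called. Both Cre-positive mice lay below all Cre-negative mice for 7 of the 20, against 10.2% of all genes tested. The sum is weighted to abundant genes, and the mean log2 CPM of the 20 markers overlapped. That mean was 7.06, 5.98 and 5.39 for Cre-negative 1, 2 and 3, then 5.36 and 5.44 for Cre-positive 1 and 2. The 14 fibroblast markers, of which 13 were in the table, summed to 435 to 1161 CPM in the Cre-negative group and 460 to 523 CPM in the Cre-positive group. Enteric neuron markers (9 of 11 in the table) summed to 16.6 to 34.03 and 15.1 to 16.8 CPM. Markers of interstitial cells of Cajal (3 of 3) summed to 29.3 to 74.8 and 31.9 to 37.5 CPM. The 10 epithelial markers were present in every library, as the labelled tissue requires, and summed to 3744 to 4469 CPM in the Cre-negative group and 3575 to 5293 CPM in the Cre-positive group. In whole tissue, fewer cells of a type and less RNA per cell cannot be told apart. Leukocyte markers summed to 34.5 to 74.8 CPM among the controls, against 293 CPM for Cre-positive 1 and 34.04 CPM for Cre-positive 2. Negative log2 fold changes were not limited to muscle. Of the markers tested, they were found for 10 of 12 of fibroblasts (median -0.47), 5 of 5 of enteric neurons (-0.89) and 3 of 3 of interstitial cells of Cajal (-0.66). Positive values were found for 8 of 10 epithelial (median 0.30) and 4 of 4 leukocyte markers (0.74). None of these markers was called. The part of any of these cell types in the members' values was not tested.

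Set against Myh11 in the same library, Plagl1 was still lower in both Cre-positive mice, by a small margin, while Meg3 and Sgce overlapped. Plagl1 amounted to 20.1%, 26.9% and 23.9% of the Myh11 CPM for Cre-negative 1, 2 and 3, then to 13.1% and 19.1% for Cre-positive 1 and 2. On the log2 scale (prior count 2) the ratio was -2.09 ± 0.21 (SD, n = 3) in Cre-negative mice and -2.91 and -2.38 in the Cre-positive group, a difference of means of -0.56. The margin between the closest mice, Cre-negative 1 and Cre-positive 2, was 0.07 on that scale, and with the mean of the smooth muscle markers as reference the groups overlapped. Meg3, by contrast, amounted to 4.74%, 7.05% and 4.90% of Myh11 in the Cre-negative group and 5.27% and 5.50% in the Cre-positive group, with a difference in log2 ratio of 0.00. Sgce was at 1.063%, 1.04% and 1.24% against 1.18% and 0.669%. Ndn and Grb10 overlapped as well, with differences of 0.15 and 0.37. Igf2 ranged from 0.982% of Myh11 in Cre-negative 2 to 18.9% in Cre-positive 2.

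Cdkn1c and Peg3 were higher relative to Myh11 in both Cre-positive mice. Cdkn1c amounted to 1.59%, 1.33% and 1.38% of Myh11 in the controls without Cre and to 5.16% and 2.45% in the Cre-positive group, a difference in log2 ratio of 1.28. Peg3 amounted to 1.72%, 3.87% and 3.59% against 4.62% and 4.75%, a difference of 0.71. With the mean of the smooth muscle markers as reference, Cdkn1c and Peg3 were again higher in both, Peg3 by a margin of 0.00. Ratios to Myh11 lay above those of all Cre-negative mice for 45.4% of all genes tested, with Myh11 itself lower in the Cre-positive group. They lay below for 0.439% of all genes, Plagl1 among them. Plagl1 was chosen on this same contrast, so nothing is read from that share. With Myh11 as a covariate in the fit over all genes, the log2 fold change of Plagl1 went from -1.45 to -0.68 ± 0.37 (SE), that of Meg3 from -0.97 to -0.16 and that of Cdkn1c from 0.37 to 1.42. Grb10 went from -0.60 to 0.30 ± 0.48 (SE) and Ndn from -0.86 to 0.0032, for which no reliable SE was obtained. A fit of 5 libraries with a covariate leaves 2 residual degrees of freedom.

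**Figure D2:**
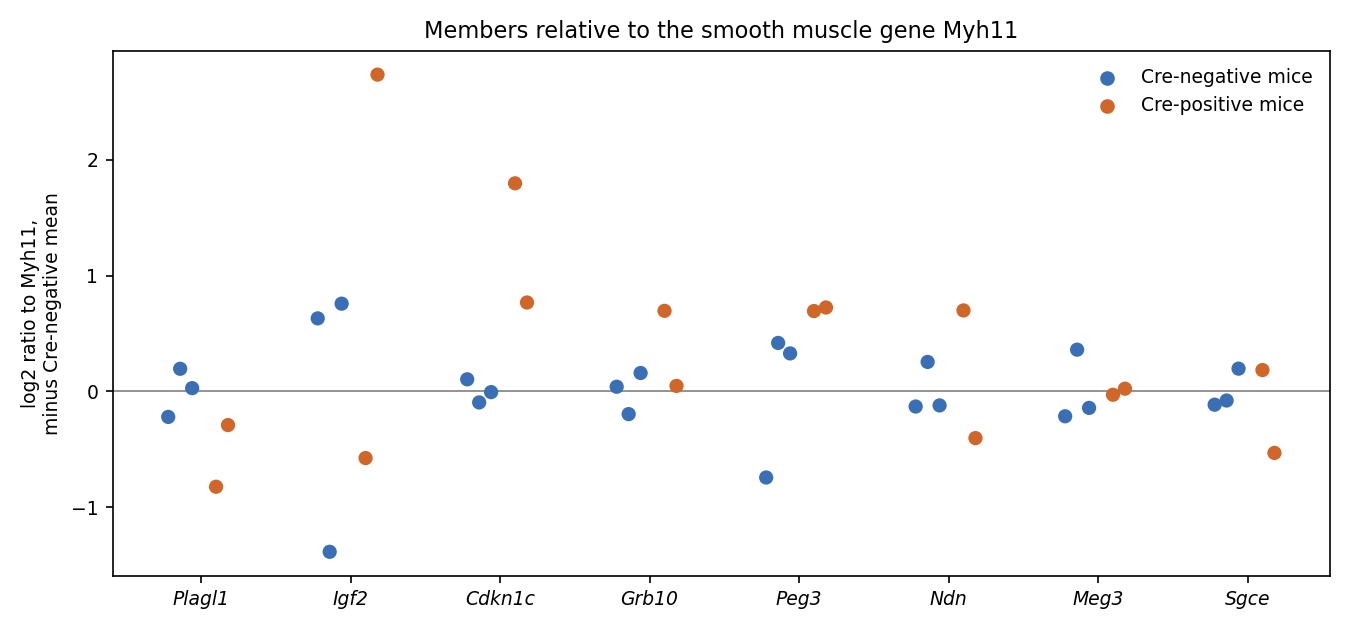
For each member tested, points give the log2 ratio of its CPM to that of Myh11 in each mouse, minus the Cre-negative mean of that gene (grey line), with Cre-negative mice in blue and Cre-positive mice in orange. Both Cre-positive points lie below the Cre-negative ones for Plagl1 and above them for Cdkn1c and Peg3. For Meg3 both Cre-positive points lie close to the line, within the range of the Cre-negative ones.

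The genes whose pattern over the 5 mice was most like that of Plagl1 were led by a muscarinic receptor gene. Likeness was measured as the root mean square difference of log2 CPM values centred on each gene's mean, over 5 libraries and 14351 other genes. Chrm2, which encodes the M2 receptor found on smooth muscle, was closest at 0.09. The ratio of Plagl1 to Chrm2 CPM was 1.13, 1.16 and 1.04 in the Cre-negative group and 0.976 and 1.14 in the Cre-positive group. Pde1b, a cyclic nucleotide phosphodiesterase gene, followed at 0.12, Frem1, a matrix protein gene, at 0.14, and Dgkb, a diacylglycerol kinase gene, and Cpe, the carboxypeptidase E gene, at 0.17 each. Predicted gene models left aside, the sixth was Zdbf2 at 0.18, an imprinted gene that is expressed from the paternal copy. It stood at 28.3, 17.2 and 12.5 CPM in the controls without Cre and at 3.68 and 8.55 CPM in the Cre-positive group. Among the members, Meg3 was nearest to Plagl1 (0.33, rank 122), then Sgce (0.46, rank 455). Myh11 ranked 157 (0.35). Igf2 was among the most distant genes (1.47, rank 13880). These distances include the difference between the groups and describe the 5 libraries only.

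The other imprinted genes listed behaved unevenly, and none was called. Of 45 genes, 29 were in the table and 24 were tested, and 17 had a negative and 7 a positive log2 fold change (median -0.21 against -0.04 over all genes tested). Beside Peg10 (-2.26 ± 0.68, SE), Zdbf2 (-1.64 ± 0.50) and Rian, Nap1l5 lay lower in both Cre-positive mice, and H13 lay higher. These were 4 lower and 1 higher of the 24, against 10.2% and 7.89% of all genes tested, and nothing is read from them. Nap1l5 (-0.58 ± 0.53) had 8 to 16 counts, with Cre-negative 3 at 2.12 CPM and Cre-positive 2 at 2.02 CPM. H13 was at 0.30 ± 0.22. The 4 most abundant genes of the list differed in direction. Kcnq1ot1, the non-coding RNA of the Cdkn1c domain, averaged 437 ± 118 CPM (SD, n = 3) in the Cre-negative group and 511 ± 96.5 CPM (SD, n = 2) in the Cre-positive group. It is annotated as 1 exon block of 93092 bases, and per kb its mean was 5.01 CPM, against 25.9 for Gnas. It lies inside the span of Kcnq1 on the opposite strand, and strand use is not known, so its level is uncertain. Gnas, the stimulatory G protein gene, averaged 277 ± 52.5 and 308 ± 43.5 CPM, and Cd81, a tetraspanin gene, 73.9 ± 20.3 and 51.2 ± 6.13 CPM. Igf2r, the receptor that clears Igf2, averaged 58.4 ± 9.28 and 59.2 ± 7.68 CPM.

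**Figure D3:**
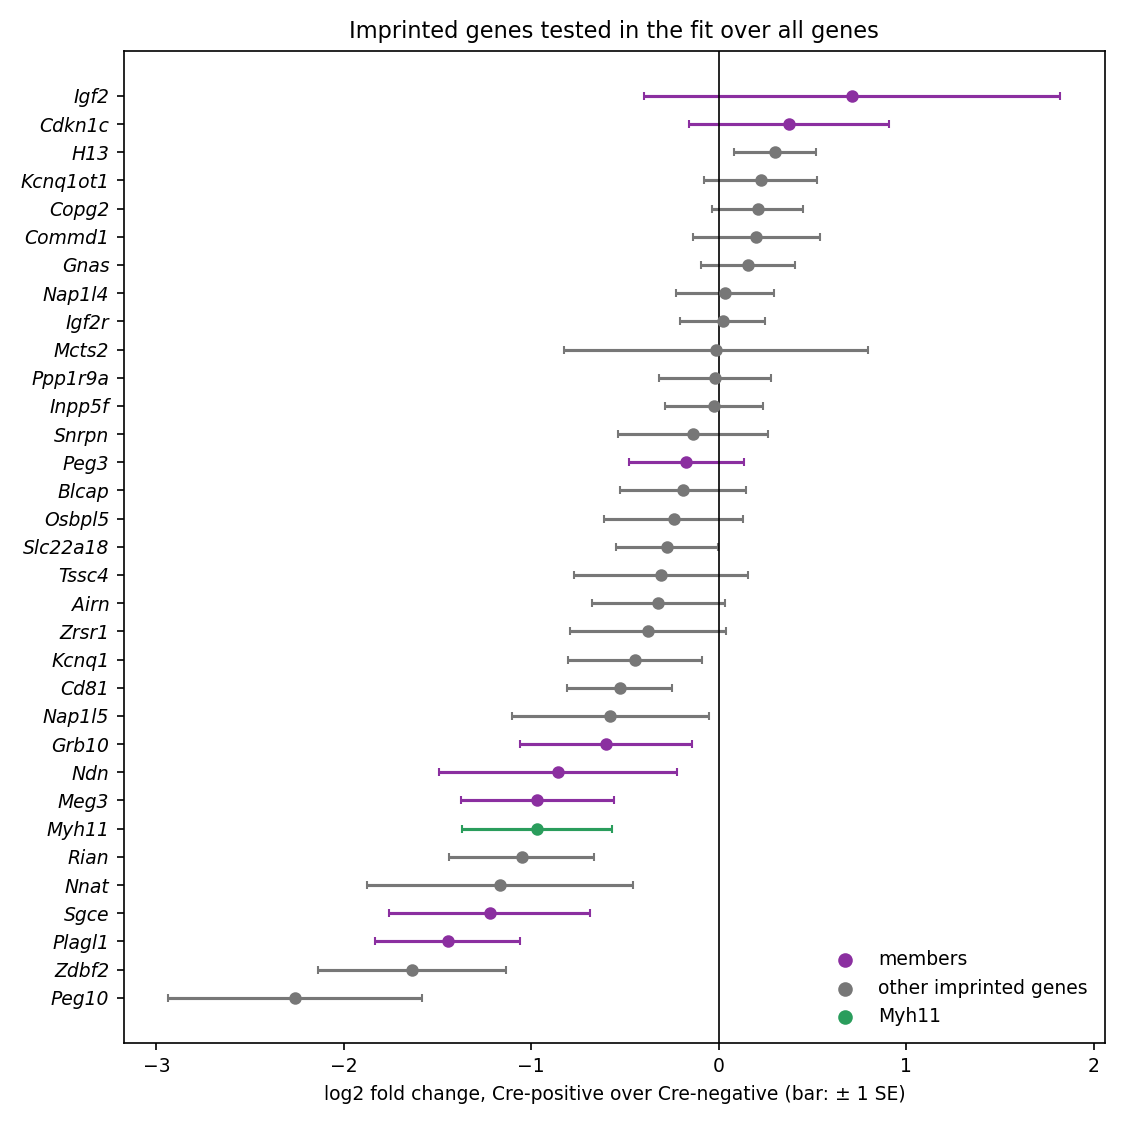
Points give the log2 fold change (Cre-positive over Cre-negative) for the 8 members tested (purple), the 24 other imprinted genes tested (grey) and Myh11 (green), with bars of 1 SE from the edgeR fit over all genes. Peg10, Zdbf2, Plagl1 and Sgce are at the low end, Igf2 has the widest bar, and no gene shown was called.

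No listed partner of the members in growth signalling was called. Of 17 genes of the insulin-like growth factor axis tested (22 listed), 12 had a negative and 5 a positive log2 fold change (median -0.10), and 0 were called. Insr, the insulin receptor gene, averaged 119 ± 3.93 CPM (SD, n = 3) among the controls, with 64.1 CPM for Cre-positive 1 and 128 CPM for Cre-positive 2. Irs2, an adaptor of that receptor, averaged 103 ± 10.9 CPM and stood at 45.9 and 116 CPM. Igfbp5, which binds insulin-like growth factors, averaged 104 ± 56.1 and 60.7 ± 4.98 CPM. Of 5 further genes held to be Plagl1 targets, 4 were tested and 0 called, and 3 of the 4 had a positive log2 fold change. Dcn, the gene of the matrix proteoglycan decorin, stood lower on average but overlapped (258.8, 163 and 76.6 CPM against 88.8 and 73.5 CPM). Among cyclin-dependent kinase inhibitors related to Cdkn1c, 4 of 6 were tested and 0 called. Cdkn1a averaged 84.8 ± 7.74 and 80.2 ± 16.3 CPM and Cdkn1b 71.1 ± 15.9 and 79.8 ± 8.65 CPM. For the complex of Sgce, 4 of 7 partners were tested, 4 had a negative log2 fold change (median -0.66) and 0 were called. Dag1, the dystroglycan gene, averaged 177 ± 13.97 and 158 ± 57.2 CPM, and Sspn, the sarcospan gene, 16.7 ± 12.3 and 9.91 ± 1.04 CPM. Of 9 Notch pathway genes listed for their relation to Dlk1, 7 were tested, 6 had a negative log2 fold change (median -0.09) and 0 were called. Notch2 averaged 28.4 ± 13.3 and 27.5 ± 12.04 CPM, and Notch1 8.18 ± 1.99 and 9.14 ± 5.68 CPM.

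**Figure D4:**
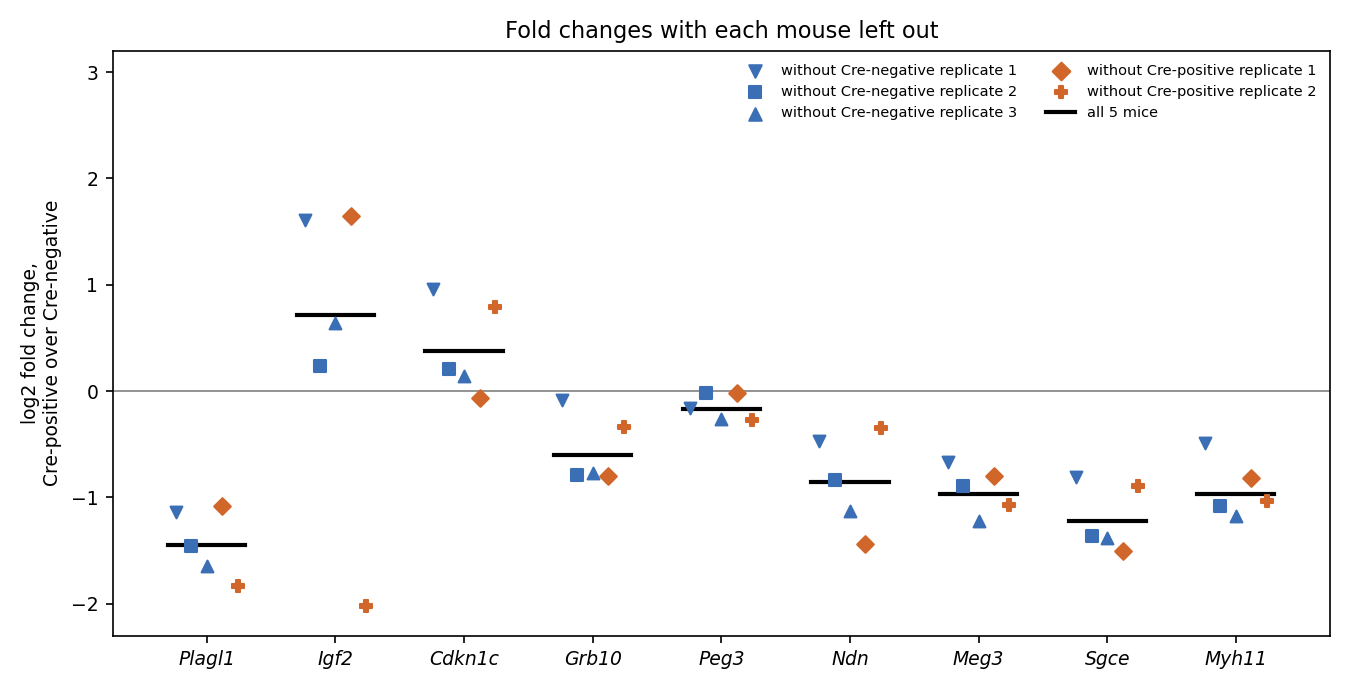
Black bars give the log2 fold change of each member and Myh11 with all 5 mice, and symbols give it with a single mouse left out. Plagl1 stays between -1.83 and -1.08, Igf2 moves between -2.02 and 1.64, and Cdkn1c crosses 0 without Cre-positive 1.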

How the data were processed

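RNA of whole small intestine from 5 mice was depleted of ribosomal RNA and sequenced, as the labels' protocols state. The authors deposited 1 table of estimated counts per gene symbol, which were rounded to whole numbers for the tests. The submitters' processing notes name Partek and mm10, but the aligner, gene annotation, strandedness and way of counting reads were not given in the sources used here. Fractional parts were present: between 19.6% and 21.7% of a library's values were not whole, with a tolerance of 0.005. Library totals ran from 4681119 to 6618204 counts, and the lowest total of any gene was 10.

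Genes were tested with edgeR 4.0.16 (R 4.3.3): TMM scaling, a filterByExpr minimum of 10 counts, quasi-likelihood fits on genotype with robust estimation and Benjamini-Hochberg adjustment over 14352 genes. DESeq2 1.42.0 and limma-voom (limma 3.58.1) were alternatives. Each standard error is |log2 fold change| over the root of F. The fit was tested on simulated data. CPM are TMM-scaled. Positions, exon lengths and overlaps came from GENCODE M21 (GRCm38), which matched 18923 symbols (98.6%). Strand use is not known, so reads in exon bases shared by genes on opposite strands cannot be separated. Cre-negative and Cre-positive follow the genotype label, and replicates are numbered in accession order.

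The members and gene lists were chosen with earlier results of these data known. The rule for named genes took every member and Myh11, the 4 most abundant genes of the imprinted and growth factor lists, the 2 most abundant of other lists, and the 6 genes most like Plagl1 whose log2 CPM averaged at least 1. Rian, Peg10, Nap1l5, H13, Gm49394 and the genes in the closing section were named after their values were seen.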

Additional observations from a re-analysis of the deposited data

How the results depend on the processing

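The count of 0 genes called held under every scaling, filter and covariate tried, without robust fitting, with limma-voom and at an adjusted p of 0.1. It was 19 with DESeq2 (12 higher and 7 lower) and between 0 and 58 with a mouse left out, the 58 being without Cre-positive 2, all higher. No member was called under any setting run (lowest edgeR adjusted p 0.237, for Plagl1 without Cre-positive 2). Plagl1, Meg3, Sgce and Peg3 kept a negative log2 fold change in every alternative run, with Plagl1 between -1.83 and -0.68. The sign changed for Grb10 with Myh11 (0.30, SE 0.48) or the smooth muscle markers (0.0633, SE 0.40) as covariate. Both values lay within 1 SE of 0. The sign also changed for Ndn with Myh11 as covariate (0.0032), a value too near 0 for the SE formula used here to be reliable. With a mouse left out, Igf2 ranged from -2.02 to 1.64 (reversed without Cre-positive 2) and Cdkn1c from -0.0653 to 0.96 (reversed without Cre-positive 1). The cause was not tested. The 3 members whose mice did not overlap became 3 to 6 with a mouse left out. The 3 that did not overlap relative to Myh11 also became 3 to 6. Fewer mice make overlap rarer for any gene. The share over all genes was not taken with a mouse left out, so nothing is read from these counts. Fits without a Cre-positive mouse assume that the remaining one varies like the other group. Ndn and Sgce could not be tested with the filter of 5 CPM in 2 libraries. H19, at 10 counts, is limited by depth. No paired analysis was possible because the labels give no replicate numbers shared between the groups.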

Other observations

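Igf2 was lowest in Cre-negative 2 and Cre-positive 1, and some other genes had a similar pattern over the 5 libraries. By the same likeness measure used for Plagl1, Npl (root mean square log2 difference 0.51), Nt5e (0.52), Cyp2c55 (0.56), Unc93a (0.58), Rnf208 (0.62) and Spns2 (0.67) were closest over the 5 libraries. Nt5e, the ecto-5'-nucleotidase gene, stood at 81.7, 27.1 and 50.7 CPM in Cre-negative 1, 2 and 3 and at 17.997 and 114 CPM in Cre-positive 1 and 2. Cyp2c55, a cytochrome P450 gene, stood at 50.8, 9.82 and 32.1 CPM against 6.39 and 39.2 CPM. Both were also lowest in those mice. These genes were named after their values were seen, and the difference between mice of 1 genotype was not tested.

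Among the listed genes with few counts, many of which overlapped between the groups, 2 were picked after their values were seen. Grb14, an adaptor of the same family as Grb10, stood at 10.3, 5.93 and 3.26 CPM in Cre-negative and at 0.968 and 2.02 CPM in Cre-positive mice (log2 fold change -2.06 ± 0.64, SE). Rtl1, a retrotransposon-derived gene of the Meg3 domain, had 13, 6 and 7 counts in Cre-negative and 1 count in each Cre-positive mouse, and it did not pass the filter. CPM was lower in both Cre-positive mice than in every Cre-negative mouse for 10.2% of all genes tested, and nothing is read from this pair. Grb14 was not called.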
